A study of Mus musculus with 18 samples.

Results

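The xenobiotic metabolism enzyme genes described here are those of cytochrome P450 (CYP), glutathione S-transferase (GST), UDP-glucuronosyltransferase (UGT) and sulfotransferase (SULT) enzymes. Members were chosen by symbol, leaving out Cyp1a1, Cyp1b1, Cyp51 and Ugt8a, and by a minimum of 10 counts in at least 4 of 18 libraries. The rule gave 40 members among 23238 gene symbols: 19 CYP, 17 GST, 3 SULT and 1 UGT gene. A further 122 symbols of these families fell below the minimum.

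Male C57BL/6 mice, 7 weeks old at the start, received urban particulate matter (UPM, a certified city dust) or the vehicle, phosphate-buffered saline, through the nose, and their hippocampus and cortex were taken. Short-term UPM groups were dosed daily for 3, 5 or 7 days. Long-term UPM groups were dosed at 2 doses per week for 3, 8, 12, 16 or 20 weeks. The vehicle group is labelled control only, and the time at which its mice were taken is not given in the sources used here. Mice of a group contributed to a single RNA pool, which left 1 library per tissue and time, with 16 UPM libraries and 2 control libraries. Libraries of different times therefore stand in for replicates, and every p-value below measures the spread between libraries and not between mice.

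CYP enzymes oxidise foreign compounds as well as fatty acids, sterols, steroids and retinoids. GST, UGT and SULT enzymes join glutathione, glucuronic acid or sulfate to such molecules, which makes them easier to export. In the brain, levels of the drug-oxidising forms are far below those of liver, and many of the brain forms act on sterols, retinoids and lipid peroxides. Inhaled particles carry polycyclic hydrocarbons and metals, which are known inducers of several of these genes through the receptor AHR and the stress factor NRF2.

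Reads were counted at the 3′ ends of transcripts, so values are CPM, library-size-scaled counts (TMM method), with no length scaling. Each library held 5.43 to 8.97 M counts, of which the members took 0.0975% to 0.1304%. The libraries fell into sets by the style of their column names: the 3, 5 and 7 day and 3 week libraries have letter codes, and the control and 8 to 20 week libraries have number codes. In the 8 week libraries the code holds a 1 where the label says 8 weeks, and the codes of both controls hold a 1 too. The labels were followed. The ribosomal precursor Rn45s took 14.83% to 18.61% of counts in the 8 letter-coded libraries and 7.75% to 12.88% in the 10 number-coded ones. Both controls belong to the number-coded set, so exposure class, set and age cannot be told apart. The hippocampal 16 week library stood apart from the others in liver genes, as given further on. Marker genes of hippocampal neurons summed to 180 to 268 CPM in the hippocampal libraries and 21 to 57.7 CPM in the cortical ones, as labelled.

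The detected enzymes were mostly those with brain lipid or glutathione roles. Of the drug-oxidising families CYP1 to CYP3, 5 of 54 symbols were members, and their summed level over the 18 libraries averaged 15.2 CPM. The fatty acid and eicosanoid group, CYP4 and Cyp2j, gave 8 members of 30 symbols and 53.7 CPM. The sterol, steroid and retinoid group, CYP5 and above, gave 6 members of 18 symbols and 101 CPM. Among GST genes, 6 of 7 mu-class, 2 of 2 pi-class and 3 of 4 theta-class symbols were members. Of the 10 UGT2 and 2 UGT3 symbols, 0 passed the minimum. As a family, GST genes summed to 577 CPM, SULT to 378 CPM, CYP to 170 CPM and the UGT member to 3.55 CPM.

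A few genes held most of the counts. Sult4a1, a brain sulfotransferase without an established substrate, held 33.1% of the members' counts and averaged 372 CPM, with 279 CPM in the lowest and 453 CPM in the highest library. Next came the mu-class genes Gstm5 with 15.7% and 181 CPM and Gstm1 with 12% and 138 CPM. Cyp46a1, the neuronal hydroxylase that converts cholesterol to an oxysterol able to leave the brain, held 6.09% and averaged 67.5 CPM. With the pi-class pair Gstp2 and Gstp1 and with Gsta4, which conjugates aldehydes of lipid peroxidation, these 7 genes made up 81.2% of the members' counts.

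The other members were lower. Gsta4 averaged 37.7 CPM. Gsto1, which also reduces dehydroascorbate, averaged 20.7 CPM, and Gstz1, an isomerase of tyrosine breakdown, 21.7 CPM. Gsto2 averaged 0.955 CPM, Gstt2 1.22 CPM, Gstt3 3.23 CPM, Gstm2 1.82 CPM and Gstm4 5.89 CPM. Among CYP genes, Cyp2j9 averaged 12.3 CPM and Cyp2j6 10.8 CPM, both of the fatty acid and eicosanoid group. Cyp4f15 averaged 10.3 CPM and Cyp4v3 6.56 CPM, both fatty acid hydroxylases. Cyp4f14, of the same kind, averaged 3.84 CPM, and Cyp11a1, which cuts the cholesterol side chain in steroid synthesis, 1.97 CPM. Sult1a1, which sulfates phenols, averaged 3.72 CPM and Sult2b1, which sulfates sterols, 2.5 CPM. Ugt1a6b, which joins glucuronic acid to phenols, averaged 3.55 CPM.

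The steadiness of the members varied widely. Over 20 members with a mean of at least 5 CPM, the ratio of the highest to the lowest library had a median of 2.7. It was smallest for Gstp2 at 1.41, with 52.3 CPM in hippocampus at 20 weeks and 74 CPM in hippocampus at 5 days. The ratio was largest for the theta-class Gstt1 at 12.6, with 1.35 CPM in hippocampus at 7 days and 16.9 CPM in cortex at 3 weeks. Gstp1 and Gstp2 share 72.8% and 50.9% of the 75-base stretches in the last 500 bases of their transcripts, so their counts could be split between them; their count ratio lay between 0.835 and 1.11. Ugt1a6b shares 100% of its stretches with other UGT1 genes, whose rows held at most 2 counts in any library, so its counts cannot be assigned to this gene alone. Of the 40 members, 29 share no such stretch with another gene.

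The members at the edge of the count minimum were Cyp39a1, Cyp2f2, Gsto2 and Cyp2e1 just inside, with 10 counts or more in 4, 5, 6 and 6 libraries. Cyp20a1, Cyp4x1os, Cyp3a11 and Sult5a1 lay just outside, with 3, 3, 2 and 2 such libraries.

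Single libraries set the highest or lowest value of many members. Hippocampus at 5 days held the highest value of 7 members, Cyp26b1, Cyp4f14, Gstk1, Gstm7, Gstp1, Gstp2 and Gstt3, and the lowest of another 7. It also held the highest value of 10.2% and the lowest of 13.1% of all genes with a mean of at least 10 counts. Gsta4 had 69.4 CPM in cortex at 7 days and 25.8 to 52.4 CPM in the other libraries. Cyp11a1 had 44 counts in hippocampus at 3 days and 4 to 25 elsewhere. Sult1a1 had 0 and 3 counts in hippocampus at 3 and 7 days and 4 in cortex at 3 weeks, against 15 to 66 in the other libraries. Cyp39a1, a hydroxylase of oxysterols, had 28 counts in cortex at 3 weeks and 22 in cortex at 16 weeks, and 0 to 14 elsewhere. Gstt3 had 37 and 43 counts in hippocampus at 5 and 7 days, against 6 at 3 days and 11 at 3 weeks. These single-library values have no replicate.

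**Figure D1:**
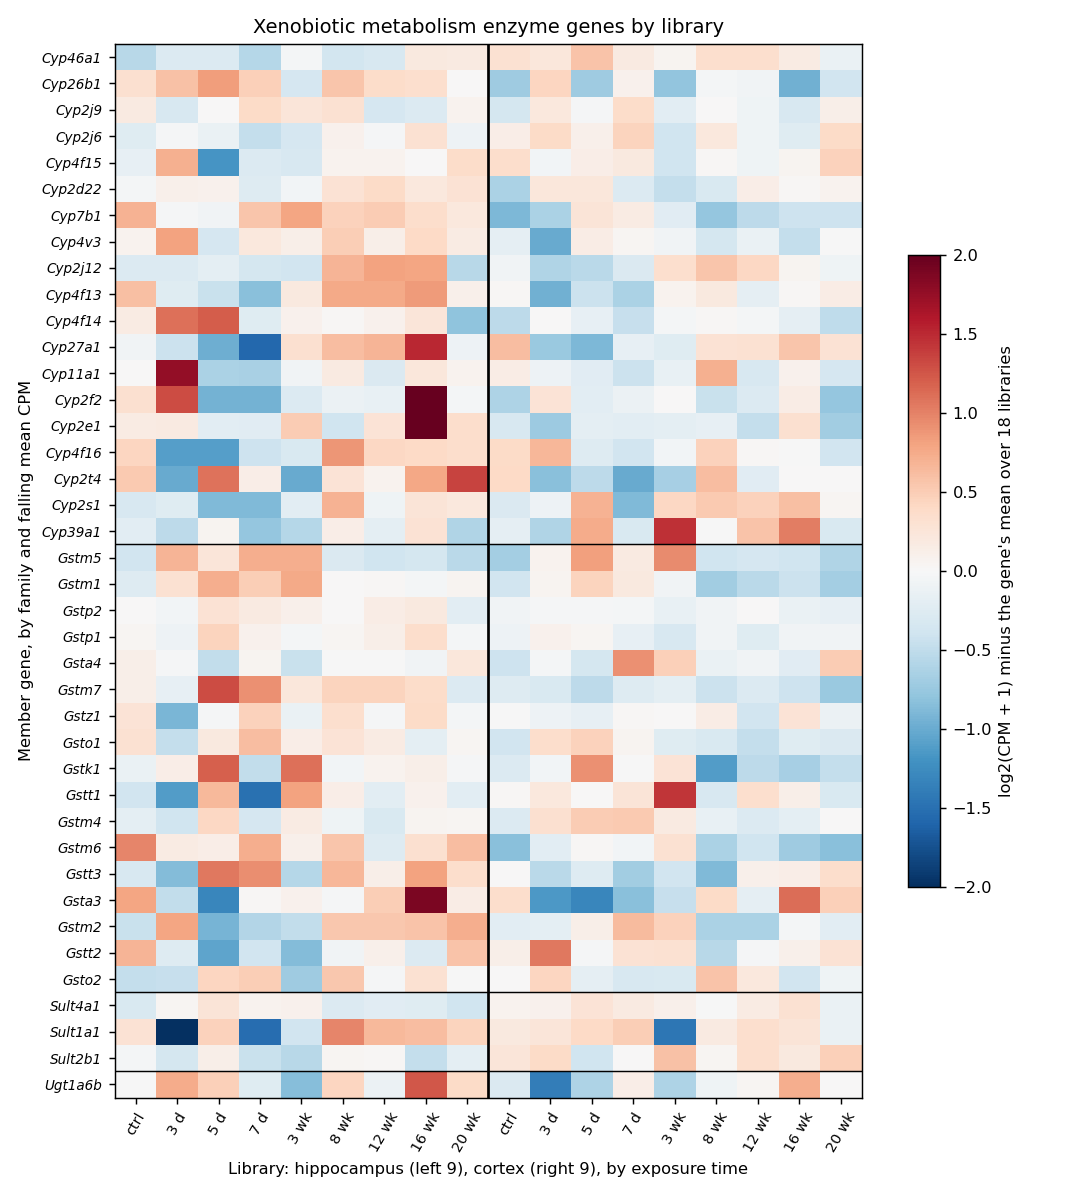
Level of each of the 40 members (rows, by family) in each of the 18 libraries (columns, hippocampus left and cortex right, by exposure time), as log2(CPM + 1) minus the gene's mean over the libraries. Red is above and blue below the gene's mean; Cyp2f2, Cyp2e1 and Gsta3 are reddest in the hippocampal 16 week library, and Gstm5 and Gstm1 are red from 3 days to 3 weeks in hippocampus.

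Hippocampus and cortex were compared at the same times, with time as a factor. Of 40 members, 7 differed by edgeR's quasi-likelihood test with Benjamini-Hochberg adjustment over all genes, or 17.5%, against 16.7% of all 14865 genes tested. Higher in hippocampus were 5 members and lower were 2. Of the 5, 3 were mu-class GST genes, a class with 6 members, all in a cluster on chromosome 3. The other mu-class members, Gstm5, Gstm4 and Gstm2, had log2 differences of 0.08, -0.17 and 0.27 that did not pass (adjusted p of 0.656, 0.633 and 0.794, edgeR). The background shares were 7.51% of genes higher and 9.22% lower. The median log2 difference was 0.15 over the members and -0.005 over all genes. A difference in bulk tissue can come from fewer cells of a type or less RNA per cell, which cannot be told apart here.

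Gstm1, a mu-class transferase of glutathione to electrophiles, had 110, 163, 219, 186, 224, 133, 135, 129 and 138 CPM in hippocampus and 101, 138, 181, 152, 126, 81.4, 91.1, 98.1 and 82.4 CPM in cortex, from control through 3, 5 and 7 days to 3, 8, 12, 16 and 20 weeks. Hippocampus was above cortex at 9 of 9 times, although the ranges of the tissues overlapped. The log2 difference was 0.46 ± 0.0794 (SE, adjusted p = 0.000413, edgeR).

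Gstm7, of the same class, had 24.7, 20.2, 57.4, 43.7, 26.5, 31.2, 31.1, 29.4 and 18.6 CPM in hippocampus and 18.8, 18.2, 15.5, 18.7, 19.6, 16.5, 18.6, 16.8 and 13.1 CPM in cortex, in the same order. Hippocampus was again the higher at 9 of 9 times, most at 5 and 7 days. This gave a log2 difference of 0.78 ± 0.143 (adjusted p = 0.000694, edgeR), and it passed with any 1 library left out. Gstm6, the third of these, averaged 5.35 ± 1.69 CPM in hippocampus and 2.81 ± 1.13 CPM in cortex (SD, n = 9 each), a log2 difference of 0.94 ± 0.287 (adjusted p = 0.03, edgeR). Its call was lost without any of the control, 8, 16 or 20 week libraries of either tissue, with adjusted p of 0.0716 to 0.104 by edgeR.

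Cyp26b1, which breaks down retinoic acid, averaged 22.6 ± 5.16 CPM in hippocampus and 14 ± 5.04 CPM in cortex (SD, n = 9 each). It was higher in hippocampus at 9 of 9 times, with a log2 difference of 0.72 ± 0.147 (adjusted p = 0.00178, edgeR). Cyp7b1, which hydroxylates oxysterols and neurosteroids, averaged 11.9 ± 2.58 CPM in hippocampus and 6.69 ± 2.21 CPM in cortex. Its log2 difference was 0.86 ± 0.19 (adjusted p = 0.00328, edgeR).

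Cyp46a1 had 44.4, 54.3, 54.5, 44, 64.1, 51.1, 52.4, 75.2 and 74.8 CPM in hippocampus and 81.3, 77.1, 98.2, 74.5, 68.5, 83.3, 83.3, 74.3 and 60.1 CPM in cortex, from control to 20 weeks. Hippocampus was lower except at 16 and 20 weeks, and the log2 difference was -0.46 ± 0.116 (adjusted p = 0.00898, edgeR). Sult4a1 was lower in hippocampus at 9 of 9 times, with 344 ± 55.4 CPM there and 400 ± 37.1 CPM in cortex and a log2 difference of -0.23 ± 0.0682 (adjusted p = 0.0231, edgeR). With total counts as the only scaling its difference was -0.17 (adjusted p = 0.104, edgeR). The call was also lost without either tissue's control, 12 week or 16 week library, with adjusted p of 0.0593 to 0.0797 by edgeR.

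For 0 of the 35 members with a mean of at least 10 counts did the hippocampal libraries lie wholly above or below the cortical ones, against 2.19% of all such genes. Astrocyte markers summed to a median of 4466 CPM in hippocampus, with a range of 4109 to 5574 CPM, and to 4179 CPM in cortex, with a range of 4018 to 5219 CPM. By edgeR 4 of the 7 astrocyte markers were higher in hippocampus and 0 lower. Of 5 excitatory neuron markers 2 were higher and 2 lower, and of 5 interneuron markers 0 were higher and 2 lower. All 5 hippocampal neuron markers and 1 of 7 choroid plexus markers were higher, and 1 of 5 red blood cell genes was lower. Of the oligodendrocyte, endothelial, mural and microglial markers 0 were called. The part of any cell type in the member differences was not tested.

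**Figure D2:**
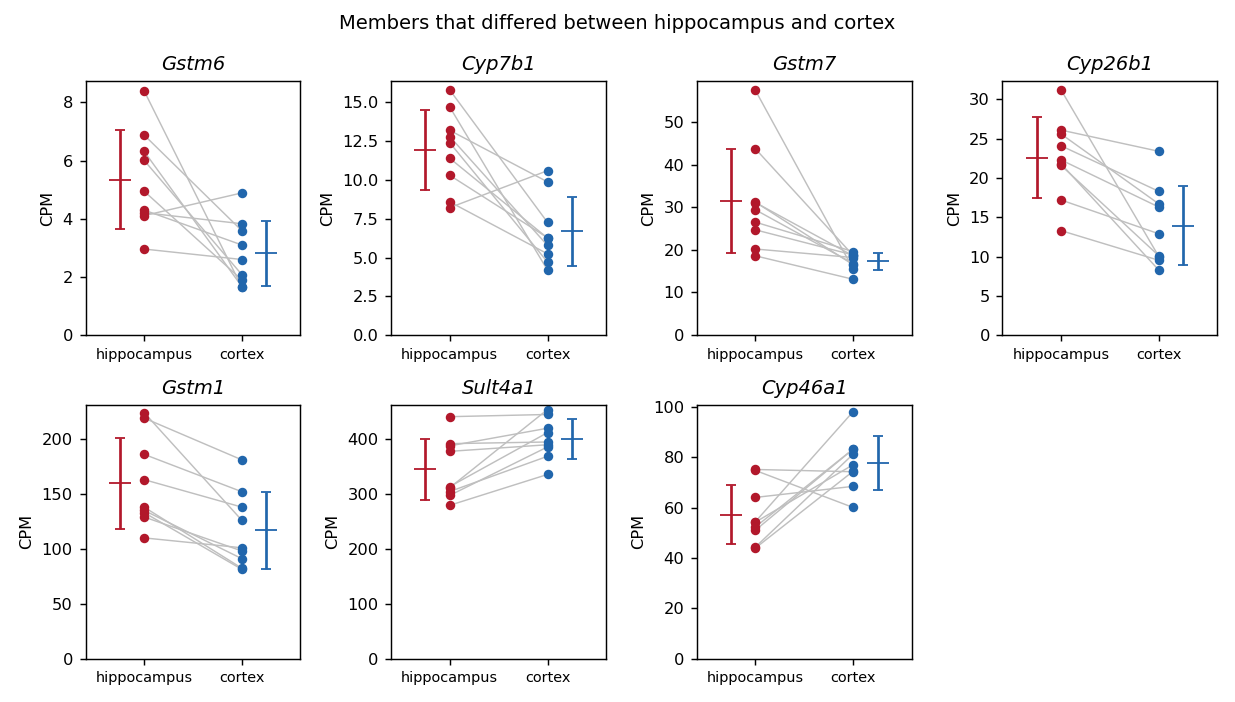
CPM (linear axis from 0) of the 7 members that differed between the tissues, hippocampus left and cortex right, with a grey line joining the libraries of 1 exposure time. Bars beside the points give mean ± SD over 9 libraries; the lines of Gstm1, Gstm7 and Cyp26b1 all fall from hippocampus to cortex and those of Sult4a1 all go the other way.

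The mu-class members, both those that differed between the tissues and those that did not, lie within 1 cluster on mouse chromosome 3 (mm10). Gstm5 spans chr3:107895821-107898686 on the plus strand. Gstm7 spans chr3:107926334-107931817, Gstm6 chr3:107938847-107943749, Gstm2 chr3:107981702-107986453, Gstm1 chr3:108012255-108017973 and Gstm4 chr3:108040408-108044894, all on the minus strand. Reads from exons of Gstm5 could also fall in 4933431E20Rik on the opposite strand, which had 295 to 495 counts in the libraries, and the strand setting of the counting is not given in the sources used here. The promoters of Gstm1, Gstm5 and Gstm7 are shown because Gstm1 and Gstm7 passed the test between tissues, and Gstm5 and Gstm1 that between 3 days to 3 weeks and the other times, as described below. Each runs 5′ to 3′ from 250 bases before to 50 after a start in RefSeq (GRCm38.p6), and capitals mark matches on either strand to GCGTG, the core bound by AHR and ARNT, or to TGACNNNGC, the core of the antioxidant response element bound by NRF2.
Gstm1 (chr3:108017924-108018223, minus): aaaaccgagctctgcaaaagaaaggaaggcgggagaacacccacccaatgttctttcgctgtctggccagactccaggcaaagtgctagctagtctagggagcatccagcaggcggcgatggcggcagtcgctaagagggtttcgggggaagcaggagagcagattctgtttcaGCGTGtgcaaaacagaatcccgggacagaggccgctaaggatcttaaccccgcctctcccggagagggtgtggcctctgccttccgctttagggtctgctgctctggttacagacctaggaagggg
Gstm5 (chr3:107895604-107895903, plus): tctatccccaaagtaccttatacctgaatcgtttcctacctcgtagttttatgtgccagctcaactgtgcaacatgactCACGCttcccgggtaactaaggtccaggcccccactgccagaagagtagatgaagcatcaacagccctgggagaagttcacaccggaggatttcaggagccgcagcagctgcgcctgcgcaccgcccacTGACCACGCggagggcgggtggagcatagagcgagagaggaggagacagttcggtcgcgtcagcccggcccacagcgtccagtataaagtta
Gstm7 (chr3:107931768-107932067, minus): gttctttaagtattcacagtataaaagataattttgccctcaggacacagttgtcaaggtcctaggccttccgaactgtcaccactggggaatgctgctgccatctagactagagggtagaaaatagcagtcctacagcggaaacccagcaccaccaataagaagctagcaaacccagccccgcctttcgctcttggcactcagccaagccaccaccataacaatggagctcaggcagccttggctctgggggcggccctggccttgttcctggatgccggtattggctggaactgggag
The Gstm1 window holds 1 GCGTG match, the Gstm5 window 2 GCGTG matches and 1 TGACNNNGC match, which overlaps 1 of them, and the Gstm7 window 0 of either. Gstm1 and Gstm7 have 2 starts each in the table, and the windows shown begin at the first listed. At the other start, which is not shown, the Gstm1 window overlaps the one above and holds the same GCGTG match. The Gstm7 window at its other start holds 1 TGACNNNGC match. Gstm6, which also passed the test between tissues, is not shown, and its windows hold 0 matches of either kind. Overlapping windows were counted separately in the shares that follow, so 1 match can count more than once. Over all members, 46 promoters of 33 genes were matched by symbol. GCGTG was in 26.1% of these and 32.4% of all 32851 promoters, and TGACNNNGC was in 10.9% of these and 12.4% of all.

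UPM libraries were set against the controls of the same tissue. Of 40 members 0 differed between the 16 UPM and the 2 control libraries by edgeR, and 0 had an unadjusted p under 0.05. The background was 0% as well, with 0 of 14865 genes called and 267, or 1.8%, at an unadjusted p under 0.05. DESeq2 and limma-voom also called 0 genes. The members with the smallest p were Cyp2d22, a mouse CYP2D drug-oxidising enzyme, with a log2 difference of 0.42 ± 0.241, Gstm5 with 0.69 ± 0.411 and Gstm1 with 0.40 ± 0.264 (SE, adjusted p = 0.982 each, edgeR). These values rest on the controls: without the hippocampal control they were 0.68, 0.83 and 0.23 in that order, and without the cortical control 0.19, 0.56 and 0.57. With only 2 control libraries, these errors leave room for differences of more than 1 log2 unit in Gstm5.

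Within the number-coded set, 8 UPM libraries of 8 to 20 weeks were compared with the 2 controls. Again 0 of 40 members differed by edgeR, against 0% of 14465 genes, with 2 members and 660 genes, or 4.56%, at an unadjusted p under 0.05; DESeq2 and limma-voom called 0. Cyp2d22 had 12.4, 13.3, 11.7 and 12.4 CPM in UPM hippocampus at 8, 12, 16 and 20 weeks, against 9.68 CPM in the control. In UPM cortex it had 7.89, 11, 10.2 and 10.5 CPM, against 6.09 CPM in the control. The UPM libraries were above their control in 4 of 4 cases in each tissue. On the log2 scale the difference was 0.52 ± 0.184 (adjusted p = 0.999, edgeR). Cyp2s1 likewise had more in 4 of 4 UPM libraries of each tissue, with 6 to 18 counts in UPM libraries and 4 in each control. Its log2 difference was 1.47 ± 0.596 (adjusted p = 0.999, edgeR). With 1 control library per tissue, other members also lay above it in 4 of 4 cases, as Gstm1 in hippocampus and Gstm5 in cortex. Some lay below it in 4 of 4 cases, as Gstm6 in hippocampus and Gstm1 in cortex. The share of all genes with such an order was not counted. Cyp2j12 followed with 0.67 ± 0.37 (adjusted p = 0.999, edgeR). Without the hippocampal control the differences were 0.70 for Cyp2d22 and 0.39 for Cyp2j12, and without the cortical control 0.35 and 0.95. In this set the log2 differences from control were 0.04 ± 0.102 for Gstm1 and 0.12 ± 0.0939 for Gstm5 (adjusted p = 0.999 each, edgeR).

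Long-term UPM libraries (10, from 3 to 20 weeks) were compared with short-term ones (6, from 3 to 7 days), with tissue as a covariate. Of 38 members tested, 4 were higher in long-term libraries and 1 was lower, or 13.2%, against 15.8% of 13943 genes called, 8.41% higher and 7.38% lower. Cyp2f2 and Cyp39a1 were too low to be tested. The higher members were sterol, fatty acid and alpha-class GST genes of low level.

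Cyp4f13, a fatty acid hydroxylase, had 4.4, 7, 7.03, 7.49 and 4.09 CPM in hippocampus and 3.97, 4.43, 3.19, 3.8 and 4.23 CPM in cortex at 3 to 20 weeks. At 3, 5 and 7 days it had 2.99, 2.49 and 1.64 CPM in hippocampus and 1.43, 2.51 and 2.05 CPM in cortex. Every long-term library was above every short-term one, which held for 1 of 35 members and 0.51% of all genes with a mean of at least 10 counts, counting either direction. The log2 difference was 1.16 ± 0.257 (adjusted p = 0.00862, edgeR). The controls, at 6.18 CPM in hippocampus and 3.8 CPM in cortex, lay within the long-term range.

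Cyp27a1, the mitochondrial sterol hydroxylase, had 3.81, 4.92, 5.18, 10 and 2.6 CPM in hippocampus and 2.25, 3.74, 3.78, 4.69 and 3.72 CPM in cortex at 3 to 20 weeks. At 3, 5 and 7 days it had 1.87, 0.956 and 0.299 CPM in hippocampus and 1.31, 1.06 and 2.44 CPM in cortex. The log2 difference was 1.71 ± 0.397 (adjusted p = 0.0104, edgeR), and 1.54 (adjusted p = 0.0201, edgeR) without the hippocampal 16 week library, its highest.

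Gsta3, an alpha-class transferase that is abundant in liver, had 1.61, 1.42, 2.47, 8.1 and 1.74 CPM in hippocampus and 0.793, 2.21, 1.18, 4.36 and 2.43 CPM in cortex at 3 to 20 weeks. Short-term libraries had 0 to 10 counts, or 0 to 1.5 CPM. The log2 difference was 2.60 ± 0.665 (adjusted p = 0.0152, edgeR), and 2.22 (adjusted p = 0.0398, edgeR) without the hippocampal 16 week library. With exposure time as a block its adjusted p was 0.0508 by limma-voom.

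Cyp2j12 averaged 5.64 ± 2.04 CPM in long-term libraries (n = 10) and 3.1 ± 0.442 CPM in short-term ones (SD, n = 6), a log2 difference of 0.87 ± 0.273 (adjusted p = 0.0352, edgeR). This call was lost in 10 of 16 fits with 1 library left out: those without hippocampus at 3, 5 or 7 days or 8, 12 or 16 weeks, and without cortex at 3 or 5 days or 8 or 12 weeks (adjusted p of 0.0508 to 0.0729, edgeR). Gstm1 averaged 124 ± 41.7 CPM in long-term and 173 ± 28.6 CPM in short-term libraries, a log2 difference of -0.52 ± 0.131 (adjusted p = 0.0145, edgeR). In either tissue alone 0 members passed by edgeR, and the share of all genes called in those fits is not given here.

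The 3 week libraries are the long-term ones of the letter-coded set. Without them 8 members passed by edgeR, 4 higher and 4 lower, with Gstm5, Gstk1 and Sult4a1 joining Gstm1 among the lower. Between the 3 week and the 3 to 7 day libraries, all letter-coded, 0 members passed by edgeR, and Gstm1 differed by only -0.04 on the log2 scale. The share of all genes called in these fits is not given here, so these counts are not read as results about the members. Libraries of 8 to 20 weeks and of 3 to 7 days did not overlap for 8.57% of 35 members. The background was 10.3% of all genes with a mean of at least 10 counts.

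The 8 libraries of 3 days to 3 weeks, the letter-coded set, were also compared with the 10 control and 8 to 20 week libraries. This comparison was added after the data were seen. Of 37 members tested 9 differed, or 24.3%, against 39.3% of 13864 genes, with 20.3% of genes higher and 19% lower. Higher were 4 members, Gstm5, Gstm1, Gstk1 and Sult4a1, and lower were 5, Gsta3, Cyp27a1, Cyp4f13, Cyp2t4 and Cyp2j12.

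Gstm5 had 270, 199, 278 and 280 CPM in hippocampus and 177, 298, 191 and 324 CPM in cortex at 3, 5 and 7 days and 3 weeks. In control and at 8, 12, 16 and 20 weeks it had 129, 137, 127, 132 and 116 CPM in hippocampus and 105, 127, 133, 127 and 111 CPM in cortex. Every library of the first kind was above every one of the second, which held for 1 of 35 members and 8.25% of all genes with a mean of at least 10 counts, counting either direction. The log2 difference was 1.02 ± 0.1 (adjusted p = 1.75e-08, edgeR). Gstm1 averaged 173 ± 35.6 CPM at 3 days to 3 weeks (n = 8) and 110 ± 22.3 CPM in control and at 8 to 20 weeks (SD, n = 10), a log2 difference of 0.66 ± 0.0789 (adjusted p = 2.4e-07, edgeR). In hippocampus and in cortex taken alone, the Gstm1 libraries of these kinds did not overlap, as for 21.2% and 25.1% of genes with a mean of at least 10 counts. Of their neighbours in the cluster, Gstm7, Gstm6 and Gstm4 had log2 differences of 0.28 ± 0.157, 0.34 ± 0.252 and 0.39 ± 0.176 that did not pass (adjusted p of 0.158, 0.301 and 0.0828, edgeR). In cortex alone Gstm6 had 3.1 to 4.89 CPM at 3 days to 3 weeks and 1.65 to 2.6 CPM in control and at 8 to 20 weeks, without overlap. Gstm4 had 6.61 to 8.72 CPM and 4.57 to 5.77 CPM there in the same order. Whether these genes differed from Gstm5 and Gstm1 in this comparison was not tested.

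Gstk1, a mitochondrial and peroxisomal transferase, averaged 8.46 ± 4.03 CPM at 3 days to 3 weeks and 4.59 ± 1.36 CPM in control and at 8 to 20 weeks, a log2 difference of 0.91 ± 0.23 (adjusted p = 0.00263, edgeR). The difference of Sult4a1, 0.24 ± 0.0698 (adjusted p = 0.00696, edgeR), shrank to 0.05 (adjusted p = 0.573, edgeR) with total counts as the only scaling, which moved the median of all genes by -0.191. Gsta3 differed by -2.23 ± 0.517 on the log2 scale (adjusted p = 0.00114, edgeR), and by -1.95 (adjusted p = 0.00484, edgeR) without the hippocampal 16 week library. Cyp27a1 differed by -1.38 ± 0.347 (adjusted p = 0.00244) and Cyp4f13 by -0.89 ± 0.241 (adjusted p = 0.00443, edgeR). Cyp2t4, whose exons overlap those of Egln2 on the opposite strand, had 0 counts in 3 of the 8 libraries of 3 days to 3 weeks. It differed by -1.62 ± 0.593 (adjusted p = 0.0316, edgeR), lost without the 3 week library of hippocampus (adjusted p = 0.0543) or of cortex (adjusted p = 0.0529, edgeR). Cyp2j12 differed by -0.68 ± 0.25 (adjusted p = 0.0322, edgeR), lost without the hippocampal library of 3 weeks (adjusted p = 0.0549) or 16 weeks (adjusted p = 0.0649, edgeR). Over the 37 members tested the median log2 difference was 0.02, with 19 above 0 and 18 below, and over all genes it was -0.0002. Of total counts, which include Rn45s, the members took 0.1065% to 0.1304% in the libraries of 3 days to 3 weeks. The share was 0.0975% to 0.1211% in control and at 8 to 20 weeks, and these ranges overlapped. On the TMM scale used for CPM, the members summed to 1138 to 1368 CPM and 932 to 1106 CPM in the same order. These sums did not overlap, and Sult4a1, Gstm5 and Gstm1 held most of the members' counts.

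Markers of several kinds were called in this comparison too, which calls 20.3% of all genes higher and 19% lower. Astrocyte markers summed to 4034 to 5574 CPM at 3 days to 3 weeks and 4018 to 4466 CPM in control and at 8 to 20 weeks, and 6 of 7 were higher by edgeR. Of the other lists, 4 of 5 red blood cell genes were higher and 0 lower, and 3 of 5 excitatory neuron genes higher and 1 lower. Of 5 interneuron genes 1 was higher and 3 lower, and of 4 liver genes 0 were higher and 2 lower. Of 6 microglial markers 2 were higher and 1 lower, and of 7 endothelial markers 1 was higher and 2 lower. Of 8 mural and meningeal markers 0 were higher and 1 lower. Of the oligodendrocyte, choroid plexus and hippocampal neuron markers 0 were called. Of the RNA quality and library set list 1 of 5 was higher and 4 lower, with Malat1 at -1.98 and Miat at -2.70 on the log2 scale. The Rn45s share, given above, did not overlap between these libraries. The part of cell makeup and RNA quality in the member differences was not tested.

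**Figure D3:**
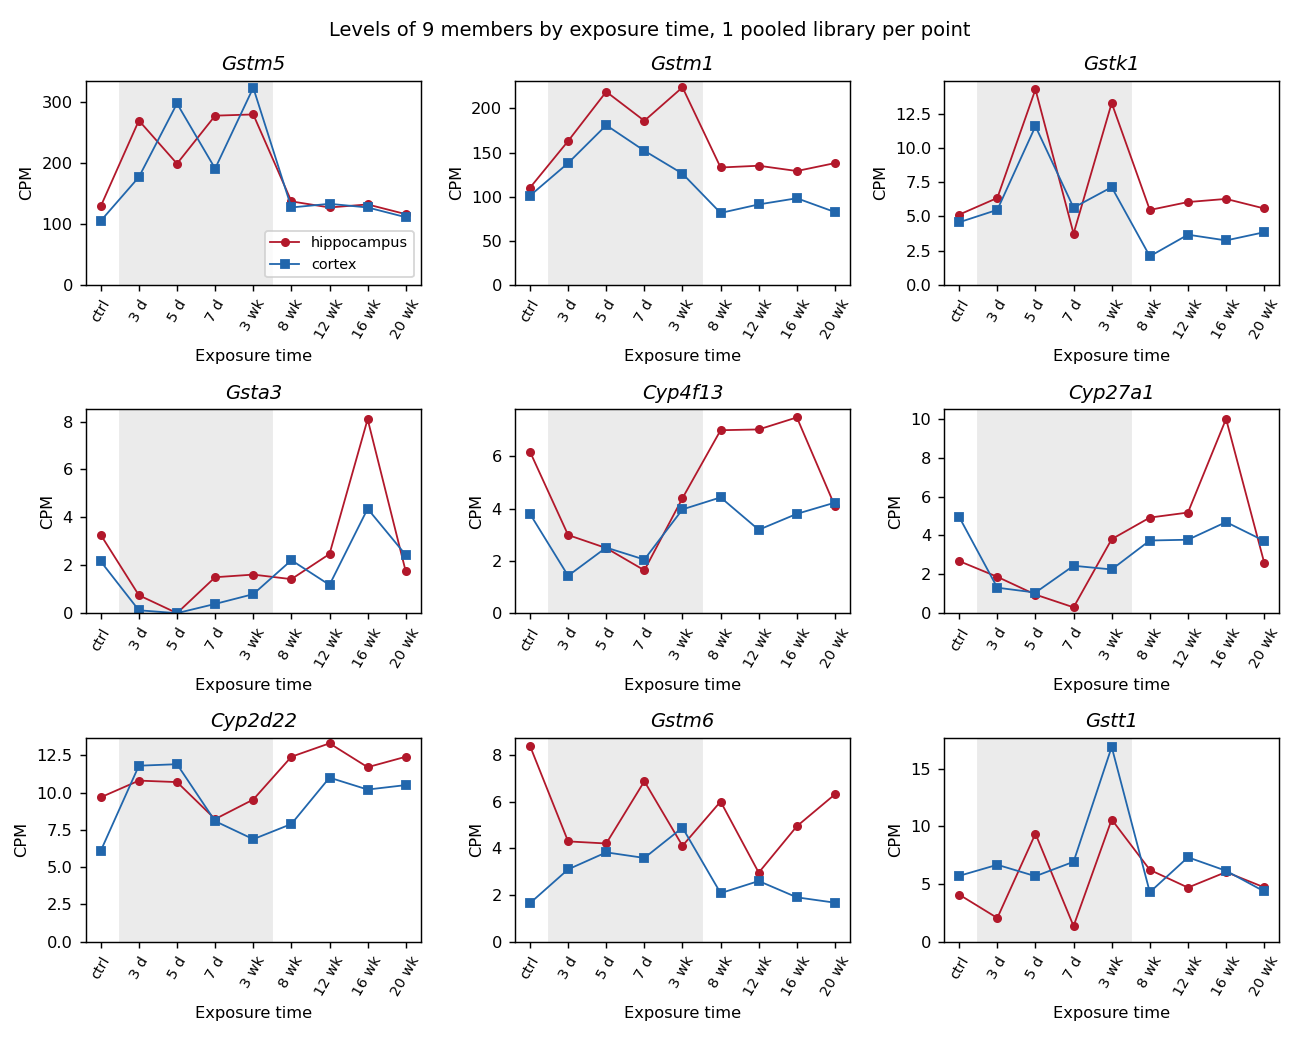
CPM (linear axes from 0) of 9 members by exposure time, with hippocampus as circles and cortex as squares; each point is 1 pooled library, so there are no error bars. Grey shading marks the letter-coded libraries, 3 days to 3 weeks, in which Gstm5 lies at 177 to 324 CPM and outside which it lies at 105 to 137 CPM.

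Across the 10 long-term libraries a slope was fitted over weeks of exposure, with which age and total dose also go. Of 39 members 1 fell, or 2.56%, against 4.2% of 14087 genes, 1.38% rising and 2.82% falling; 9 members and 26.2% of genes had an unadjusted p under 0.05. Gstm5 changed by -0.74 ± 0.144 log2 units per 10 weeks (adjusted p = 0.0339, edgeR), and Gstt1, a theta-class gene, by -0.79 ± 0.211 (adjusted p = 0.0502, edgeR). Over 8 to 20 weeks alone Gstm5 had -0.17 per 10 weeks (adjusted p = 0.513, edgeR). With 1 library left out the number of members called was 0 without hippocampus at 3 or 16 weeks or cortex at 3, 12, 16 or 20 weeks, 3 without hippocampus at 8 weeks and 5 without cortex at 8 weeks.

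The 3 week libraries are also the only letter-coded ones in this slope. Among genes with a mean of at least 10 counts, 6 of 35 members were above their levels at 8, 12, 16 and 20 weeks in both tissues at 3 weeks, or 17.1%, against 21.3% of all such genes, and 5 were below in both, or 14.3%, against 19.8%. These shares of members are no higher than the background. The 6 above were Cyp7b1, Gstk1, Gstm1, Gstm4, Gstm5 and Gstt1. Gstt1 had 10.6 CPM in hippocampus and 16.9 CPM in cortex at 3 weeks, with 4.69 to 6.23 CPM and 4.29 to 7.32 CPM at the later times.

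Whether the long-term against short-term difference itself differed between hippocampus and cortex was tested with an interaction term. Of 39 members 0 passed by edgeR, against 0% of 14427 genes, with 3 members and 1104 genes, or 7.65%, at an unadjusted p under 0.05. DESeq2 called 25 genes, 0 of them members, and limma-voom 0 genes. The smallest p-values were those of Cyp4f16, at 3.07 ± 1.15 log2 units in hippocampus minus cortex, Cyp7b1 at 0.82 ± 0.366 and Cyp46a1 at 0.50 ± 0.227 (adjusted p of 0.524 to 0.623, edgeR). Cyp4f16 had 0 counts in hippocampus at 3 and 5 days, so its fitted size depends on the prior count, and it ran from 2.25 without cortex at 3 days to 6.93 without hippocampus at 7 days.

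Genes that supply or accompany these enzymes were followed as lists. Of 20 electron donors and cofactor suppliers, 1 was higher and 1 lower in hippocampus than in cortex. Of 34 tested other detoxifying enzymes 4 were higher and 3 lower, and of 23 regulators and carriers 0 were higher and 2 lower, where 7.51% of all genes were higher and 9.22% lower. Aldh1a1, a retinaldehyde dehydrogenase, was higher in hippocampus, with a log2 difference of 0.67 ± 0.164 (adjusted p = 0.00796, edgeR). Mgst3, a microsomal glutathione transferase, was lower, with -0.57 ± 0.128 (adjusted p = 0.00367, edgeR). At 3 days to 3 weeks, set against control and 8 to 20 weeks, 6 of 19 donors and suppliers were higher and 1 lower. Of 31 other detoxifying enzymes 9 were higher and 2 lower, and of 22 regulators and carriers 3 were higher and 4 lower, where 20.3% of all genes were higher and 19% lower. Mgst3 differed by 1.33 ± 0.119 (adjusted p = 2.3e-09), and Maob, the monoamine oxidase of astrocytes, by 0.85 ± 0.122 (adjusted p = 3.9e-06, edgeR). In the comparison of UPM with control 0 genes of the 3 lists passed by edgeR, as for all genes, in which DESeq2 and limma-voom also called 0 and 267 had an unadjusted p under 0.05.

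The hippocampal 16 week library held enzyme transcripts that the other libraries had few of. The 122 symbols below the count minimum summed to 857 counts there and to 23 to 239 counts in the other 17 libraries, with a median of 56. Of the 31 of these symbols with at least 10 counts in any library, 22 were highest there. Some, as Cyp2d9, reached 10 counts through this library alone. The share of all genes chosen in the same way was not counted, so the 22 are not read as a result. Cyp3a11, a main drug-oxidising CYP of mouse liver, had 120 counts there. Its next highest library was the hippocampal control with 22, and it had 0 to 9 counts in the rest. Cyp2d9 had 68 counts there and 0 to 3 elsewhere. Among the members, 6 were highest in it: Cyp27a1, Cyp2e1, Cyp2f2, Cyp4f13, Gsta3 and Ugt1a6b. Of all genes with a mean of at least 10 counts, 3.5% were highest in this library. Cyp2f2, which oxidises naphthalene, had 105 counts there and 0 to 20 elsewhere, and Cyp2e1, the ethanol-oxidising CYP, had 60 there and 2 to 14 elsewhere.

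Of 4 liver marker genes, Alb, Apoa2 and Serpina1a were highest in the same library. Albumin (Alb) had 2566 counts there, against 315 in the control of hippocampus and 8 to 253 elsewhere. For Apoa2 the counts were 408, 67 and 2 to 68 in the same order, and for Serpina1a 293, 45 and 0 to 32. The fourth marker of the list, Ttr, is also the main transcript of choroid plexus, and had 4578 CPM in this library but 6701 CPM in hippocampus at 3 days. The part of liver transcripts in the level of any member was not tested. The 122 symbols also held counts in cortex at 3 weeks that were chosen here after their values were seen: Cyp2a5 had 19 and Ugt2a1 13, both known from olfactory epithelium, Cyp2a5 also from liver, beside 47 counts of the olfactory neuron marker Omp. Ugt2a2 had the same counts as Ugt2a1 in 18 of 18 libraries, so both symbols may hold the same reads.

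**Figure D4:**
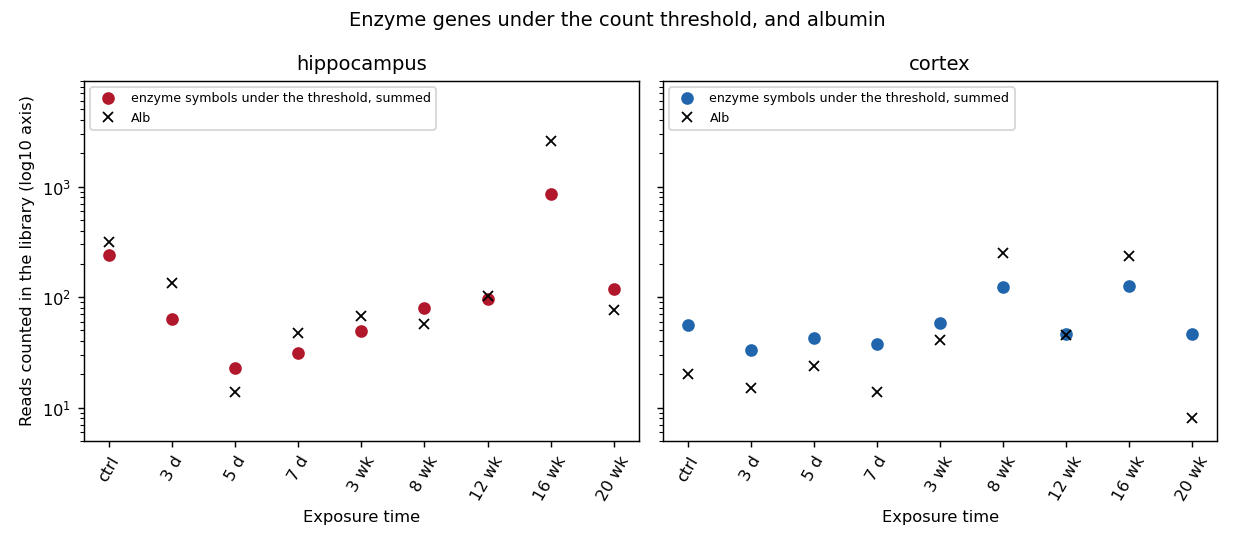
Reads per library (log10 axis) summed over the 122 enzyme symbols below the count minimum (filled circles) and for Alb (crosses), hippocampus left and cortex right, by exposure time. The hippocampal 16 week library stands at 857 and 2566 counts, and the hippocampal control follows at 239 and 315.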

How the data were processed

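QuantSeq 3′ mRNA libraries, primed with oligo-dT, were sequenced from 18 pooled RNAs as single-end 75-base reads per the labels' protocols. The deposited values are raw counts per gene symbol, which the authors made with Bowtie2, bedtools and edgeR on mm10, per the submitters' processing notes; versions, annotation, strand setting and the handling of reads with several hits are not given in the sources used here. Each file held 23282 rows. Repeated symbols were summed, and in 2 files 27 symbols that had become dates got their names back by row order. No library pair was a copy (lowest chi-squared per degree of freedom 4.14).

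Counts were tested with edgeR 4.0.16 (filterByExpr, TMM, robust quasi-likelihood F test) in R 4.3.3, with Benjamini-Hochberg adjustment over all genes and a threshold of 0.05. DESeq2 1.42.0, limma-voom 3.58.1, other scalings, other filters on low counts and the omission of single libraries were tried. The fits were tested on simulated data. A count of 3 equals 0.335 to 0.552 CPM, which covers counting error only. Positions are from GENCODE M21 on GRCm38 (mm10).

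Members and lists were chosen with earlier results of these data known. Members named by rule are those past the threshold in a comparison, the 4 highest per family and the 3 smallest p where none passed. The rule also takes the extremes of variation and the 4 on each side of the count minimum. Other members are named for their levels, as neighbours in the cluster or as flagged below. The single-library values of Gsta4, Cyp11a1 and Gstt3 were picked outside this rule. Deviations of same-time libraries of the tissues had r of -0.14 to 0.15, over 0.1 in 2 of 9 times. Pairs of different times within a set had -0.13 to 0.1, over 0.1 in 1 of 32. Time, a factor in the tissue comparison, is not read as a pairing of animals. With time as a block the consensus correlation was 0.299 for UPM and 0.00518 for late UPM against control, 0.185 for long-term against short-term UPM and 0.196 for the slope. The main exposure fits took both tissues of a time as separate libraries.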

Additional observations from a re-analysis of the deposited data

Results flagged for a closer look

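In each tissue the 5 long-term libraries were searched for a single library far from the other 4. Of 80 groups 12 had one, or 15%, where chance gives about 1 in 20 and the same search over all 13523 genes with a mean of at least 10 counts found one in 13.1% of groups. Of the 12, 8 were 3 week libraries, the only letter-coded ones among the 5, as were 79.5% of those found over all genes. In hippocampus at 16 weeks Cyp2e1 had 7.25 CPM (others 0.547 to 1.91), Cyp2f2 12.7 CPM (others 0.587 to 0.868) and Gsta3 8.1 CPM (others 1.42 to 2.47). In hippocampus at 3 weeks Gstk1 had 13.3 CPM (others 5.47 to 6.28), Gstm1 224 CPM (others 129 to 138), Gstm5 280 CPM (others 116 to 137) and Gstt1 10.6 CPM (others 4.69 to 6.23), while Gstm2 was lowest there with 0.88 CPM (others 2.84 to 3.35). In cortex at 3 weeks Gstm5 had 324 CPM (others 111 to 133), Gstm6 4.89 CPM (others 1.67 to 2.6) and Gstt1 16.9 CPM (others 4.29 to 7.32). In hippocampus at 20 weeks Cyp4f14 was lowest with 1.61 CPM (others 3.61 to 4.35).

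Gstm6 moved in opposite directions from its control in the tissues: 0 of 8 UPM libraries of hippocampus were above their control, and 8 of 8 of cortex were. This difference was not tested, and it rests on 1 control library per tissue.

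Some enzyme genes below the count minimum had 30 or more counts, all in hippocampus at 16 weeks. These were Cyp3a11 with 120 counts, Cyp2d9 with 68, Cyp2j5 with 47, Ugt2b1 with 45, Cyp1a2 with 40, Cyp2d26 with 40, Cyp3a25 with 37, Ugt2b36 with 34, Cyp8b1 with 33, Cyp2a12 with 31 and Cyp4a12a with 30. The hippocampal control had 1 to 22 counts of them.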

How the results depend on the processing

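Every member called in a comparison, or among its 3 smallest p where none was called, kept its direction under every alternative run. The other members named in the comparisons were not followed in this way. Hippocampus against cortex called 7 members, with 5 to 9 when 1 library was left out, 2 within 3 days to 3 weeks and 11 within control and 8 to 20 weeks. With no replicate block, on tissue alone, 5 passed; Gstm1 (adjusted p = 0.0839) and Sult4a1 (adjusted p = 0.145) did not. Long-term against short-term UPM called 5 members, with 4 to 7 when 1 library was left out. It called 1 among genes with a mean of at least 50 counts (fewer members are tested), 3 with exposure time as a replicate block, 0 in hippocampus alone, 0 in cortex alone, 8 without the 3 week libraries and 0 between 3 weeks and 3 to 7 days. The slope over weeks called 1 member, with 0 to 5 when 1 library was left out. It called 2 with each of DESeq2, RLE size factors, library sizes without the most counted genes, no filter and a mean of 50 counts. It called 0 with the replicate block, in hippocampus alone, in cortex alone and over 8 to 20 weeks alone. The comparison of 3 days to 3 weeks with control and 8 to 20 weeks called 9, with 7 to 9 when each of 4 doubted libraries was left out, 3 at a mean of 50 counts and 5 in hippocampus alone. UPM against control, late UPM against control and the tissue difference called 0 under every alternative run. With the block the calls of Cyp2j12 (adjusted p = 0.148) and Gsta3 (adjusted p = 0.0508) in the long-term comparison and of Gstm5 (adjusted p = 0.0634) in the slope were lost, and no other call changed. The causes of these changes were not tested, apart from the settings that use fewer libraries or genes. Shares of all genes called under the alternatives are not given here, so these counts are not read as results about the members.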
